A study of Homo sapiens with 18 samples.

Results

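The genes described here encode 10 collagen chains that do not build the thick fibrils of connective tissue: the network-forming chains COL4A1, COL4A2 and COL8A1, the microfibrillar chains COL6A1, COL6A2 and COL6A3, the FACIT collagens COL12A1, COL14A1 and COL16A1 (fibril-associated collagens with interrupted triple helices), and the basement membrane collagen COL18A1. They were taken by symbol and are 10 of the 63677 genes listed. Each symbol matched 1 Ensembl gene. They were chosen by their class of collagen and by their CPM levels across the 6 groups, which were already known. Their values are therefore a description without a test, and counts of members past the threshold stand beside the same share for all genes with nothing read from them. After a filter on low counts, 9 of the 10 were among the 18121 tested genes, and COL4A1, with 72 counts over all libraries, was not.

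Collagen IV chains join end to end into the sheet that carries basement membranes, and collagen VIII forms a lattice in some of them. Collagen VI chains assemble inside the cell into a molecule with an alpha-1, an alpha-2 and an alpha-3 chain, which is secreted as beaded microfilaments around many cell types and is bound by the proteoglycan CSPG4 and the receptor ANTXR2. FACIT collagens decorate the surface of fibrils, and COL18A1 carries heparan sulfate chains and the fragment endostatin at its end. In melanoma, matrix genes are known to be expressed more in dedifferentiated cells, which hold less of the melanocyte programme.

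Poly(A) RNA came from WM989, an established human melanoma line, and was sequenced in 18 libraries. All cells had spent 7 days in either the solvent DMSO or 4 µM EPZ5676, which blocks DOT1L, the enzyme that methylates histone H3 within its core. Each treatment gave 3 bulk libraries, 3 of cells sorted as high for NGFR and EGFR (high cells) and 3 of cells sorted as low for both (low cells), so the groups are DMSO bulk, DMSO high, DMSO low, EPZ5676 bulk, EPZ5676 high and EPZ5676 low. All groups share this line and its culture medium with 2% serum, and no label says that replicates were separate cultures, so errors measure only the spread between these samples. In bulk or sorted samples, fewer cells with a gene and less RNA per cell cannot be told apart.

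Levels are TMM-scaled CPM (normalised read counts), as mean ± SD over 3 libraries, and fold changes are log2 ± SE. Libraries held 13383741 to 26311674 gene counts. As a check of the labels, NGFR measured 572 ± 40.8 CPM in DMSO high and 1.003 ± 0.527 in DMSO low cells, and EGFR 75.9 ± 8.72 and 2.79 ± 0.612. DMSO bulk replicate 1 stood apart from the other DMSO bulk libraries, with NGFR at 220 CPM against 12.6 and 9.24. It is kept in the fits, which share their spread over all libraries, and each comparison also gives values without it for some members. In 6 libraries, 5 of them from EPZ5676-treated cells, over 16% of reads lay on no annotated feature. Melanocyte markers checked the cell type: all 8 had counts in every group, with a summed level of 11341 to 11813 CPM in DMSO low and 1235 to 1448 in DMSO high cells. Of 8 fibroblast markers, TWIST2 was at 0 in all groups and the list summed to 521 to 560 CPM in DMSO high against 127 to 138 in DMSO low cells. Of 6 endothelial markers, PECAM1 was at 0 in all groups and the list summed to 11.9 to 13.7 CPM in DMSO high against 2.51 to 3.42 in DMSO low cells, with all 3 tested markers higher (VWF at 8.64 ± 0.763 against 1.96 ± 0.487). The 6 pericyte and smooth muscle markers summed to 23.7 to 25.5 against 2.21 to 3.06 CPM, with all 4 tested markers higher. Among these, ACTA2 passed the filter on low counts only through high libraries, which favoured this direction for it. The 6 leukocyte markers summed to at most 2.72 CPM in any library, and the 6 keratinocyte markers, with KRT1 at 0 in all groups, to 25.2 to 43.3. KRT10 held nearly all of the keratinocyte sum, at 40.3 ± 2.60 CPM in DMSO high and 29.8 ± 1.95 in DMSO low cells. The group means of the other keratinocyte markers were at most 0.1125 CPM.

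The network-forming chains were the scarcest of the set. COL4A1 (ENSG00000187498), the alpha-1 chain of collagen IV, had 5, 4 and 5 raw counts in the DMSO high libraries and 5, 0 and 0 in the DMSO low libraries. In EPZ5676 high libraries it had 2, 9 and 9 counts and in EPZ5676 low libraries 0, 4 and 6. These ranges overlap in both treatments, and no neighbouring groups in the order of its means were separated. Summed over libraries, the ratio of high to low cells was 3.39 under DMSO (95% interval 1.15 to 12.03) and 2.13 under EPZ5676 (0.953 to 5.10). Intervals of this kind are exact, come from the summed counts and cover counting error only.

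COL4A2 (ENSG00000134871), the alpha-2 chain that joins alpha-1 in the same collagen IV molecule, had 15, 25 and 22 counts in DMSO high and 3, 0 and 2 in DMSO low libraries. Under EPZ5676 it had 17, 27 and 26 counts in high and 0, 4 and 0 in low libraries. High and low cells did not overlap in either treatment, and the ratio of summed counts was 15.01 under DMSO (95% interval 6.10 to 47.9) and 18.7 under EPZ5676 (6.97 to 70.4). High cells held nearly the same level with and without the inhibitor, 1.25 ± 0.257 against 1.21 ± 0.307 CPM, with a ratio of 1.04 (0.730 to 1.49).

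COL4A1 and COL4A2 lie head to head, so the bases between their starts are shown. The stretch between the starts has 126 bases and spans chr13:110307158-110307283 of GRCh38.p14, from RefSeq, on the strand of COL4A2, with the motif GGGCGG in capitals.

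COL4A1-COL4A2: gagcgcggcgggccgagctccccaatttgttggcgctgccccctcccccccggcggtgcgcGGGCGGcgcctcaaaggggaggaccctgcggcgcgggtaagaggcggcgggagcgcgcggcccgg

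G and C made up 80.2% of these bases, against a median of 58% over 35116 RefSeq windows of 250 bases before a start. GGGCGG, the core of the SP1 box, was sought on both strands and occurred in 42.6% of all such windows. Libraries of high and low cells overlapped for COL4A1 and not for COL4A2, but COL4A1 had few counts (14 summed in DMSO high and 5 in DMSO low cells). Under DMSO the intervals of the high to low ratio overlapped, at 1.15 to 12.03 for COL4A1 and 6.10 to 47.9 for COL4A2. Under EPZ5676 they did not, at 0.953 to 5.10 and 6.97 to 70.4. Whether the sort difference differs between the genes was not tested. The annotated COL4A2 antisense genes COL4A2-AS1 and COL4A2-AS2 had 0 counts in all libraries. Of the partners of collagen IV, COL4A5 had 8 counts and PXDN, the peroxidase that crosslinks collagen IV, 41 counts over all 18 libraries.

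COL8A1 (ENSG00000144810), a short-chain collagen of vessel and corneal basement membranes, had 29, 42 and 29 counts in DMSO high and 2, 1 and 1 in DMSO low libraries. In EPZ5676 libraries it had 30, 23 and 27 counts in high and 0, 1 and 0 in low cells. The sorts were apart in both treatments, with a ratio of 30.3 under DMSO (95% interval 11.5 to 113) and of 85.3 under EPZ5676 (14.9 to 3411), the latter resting on 1 count in low cells. High cells stood at 1.93 ± 0.148 CPM under DMSO and 1.44 ± 0.269 under EPZ5676, and the highest EPZ5676 library (1.75) lay just under the lowest DMSO library (1.76).

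**Figure D1:**
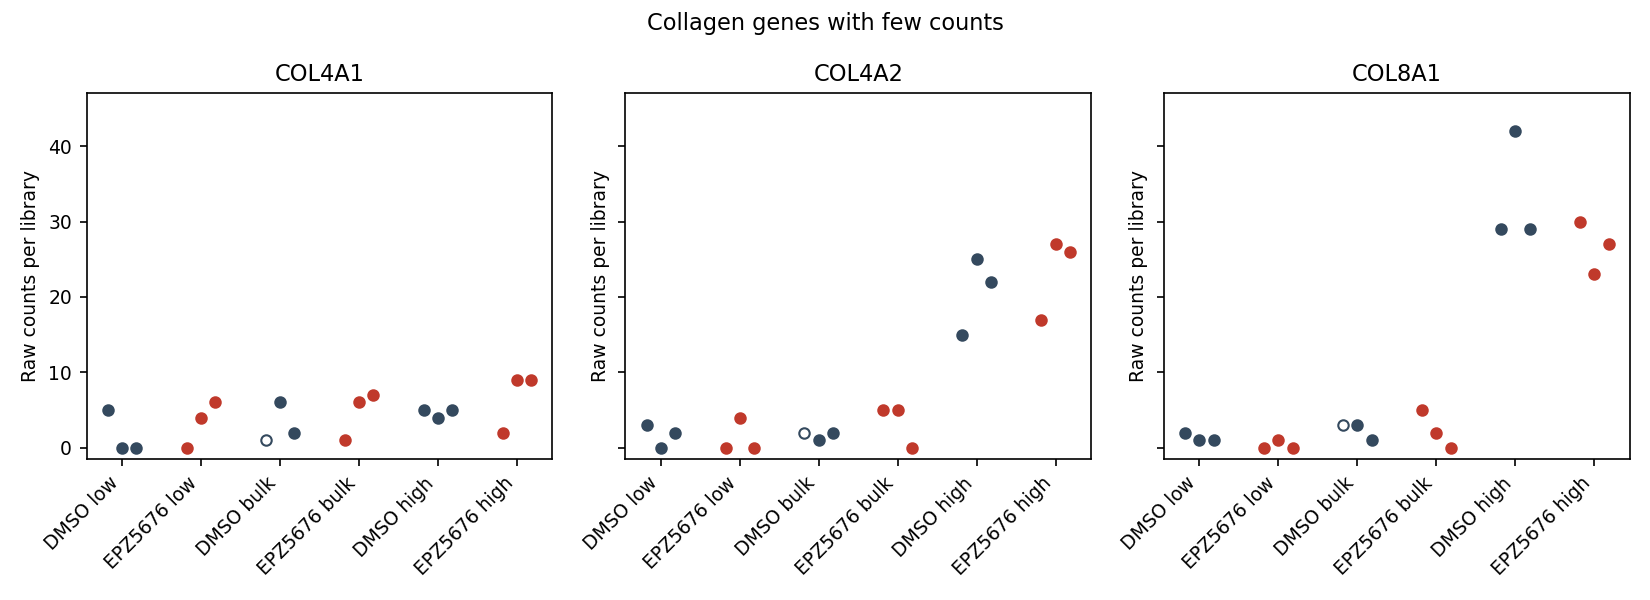
Raw counts (vertical axis) of COL4A1, COL4A2 and COL8A1 in each of the 18 libraries, by group (dark, DMSO; red, EPZ5676; open circle, DMSO bulk replicate 1). COL4A2 and COL8A1 are apart in high and low cells, and COL4A1 has at most 9 counts in any library.

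COL6A1 and COL6A2 were the most abundant members, and COL6A2 had the widest difference between the DMSO sorts. COL6A1 (ENSG00000142156), the alpha-1 chain, stood at 2891, 2984 and 2807 CPM in the DMSO high libraries and at 112, 110 and 106 in the DMSO low libraries. With EPZ5676 the high libraries were at 1586, 1385 and 1629 CPM and the low libraries at 131, 138 and 141. All 4 sorted groups were apart from each other, in the order DMSO high, EPZ5676 high, EPZ5676 low, DMSO low. The log2 fold change of high against low cells was 4.73 ± 0.64 under DMSO and 3.48 ± 0.60 under EPZ5676.

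COL6A2 (ENSG00000142173), the alpha-2 chain, stood at 3657, 3546 and 3360 CPM in DMSO high libraries and at 35.7, 40.4 and 31.96 in DMSO low libraries. With EPZ5676 it stood at 1801, 1602 and 1878 CPM in high and at 49.1, 49.9 and 46.6 in low libraries. The order of the sorted groups was that of COL6A1, again without overlap. The difference between the sorts was the widest in log2 terms among the 9 tested members under DMSO, at 6.61 ± 0.92, and stood at 5.18 ± 0.86 under EPZ5676.

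COL6A3 (ENSG00000163359), the long alpha-3 chain, was far scarcer. It stood at 165, 187 and 181 CPM in DMSO high and at 4.42, 4.17 and 5.17 in DMSO low libraries. The EPZ5676 high libraries were at 144, 124 and 124 CPM and the EPZ5676 low libraries at 7.36, 8.50 and 9.53. The 4 groups kept the same order without overlap, and the log2 difference between sorts was 5.27 ± 0.82 under DMSO and 3.94 ± 0.76 under EPZ5676.

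**Figure D2:**
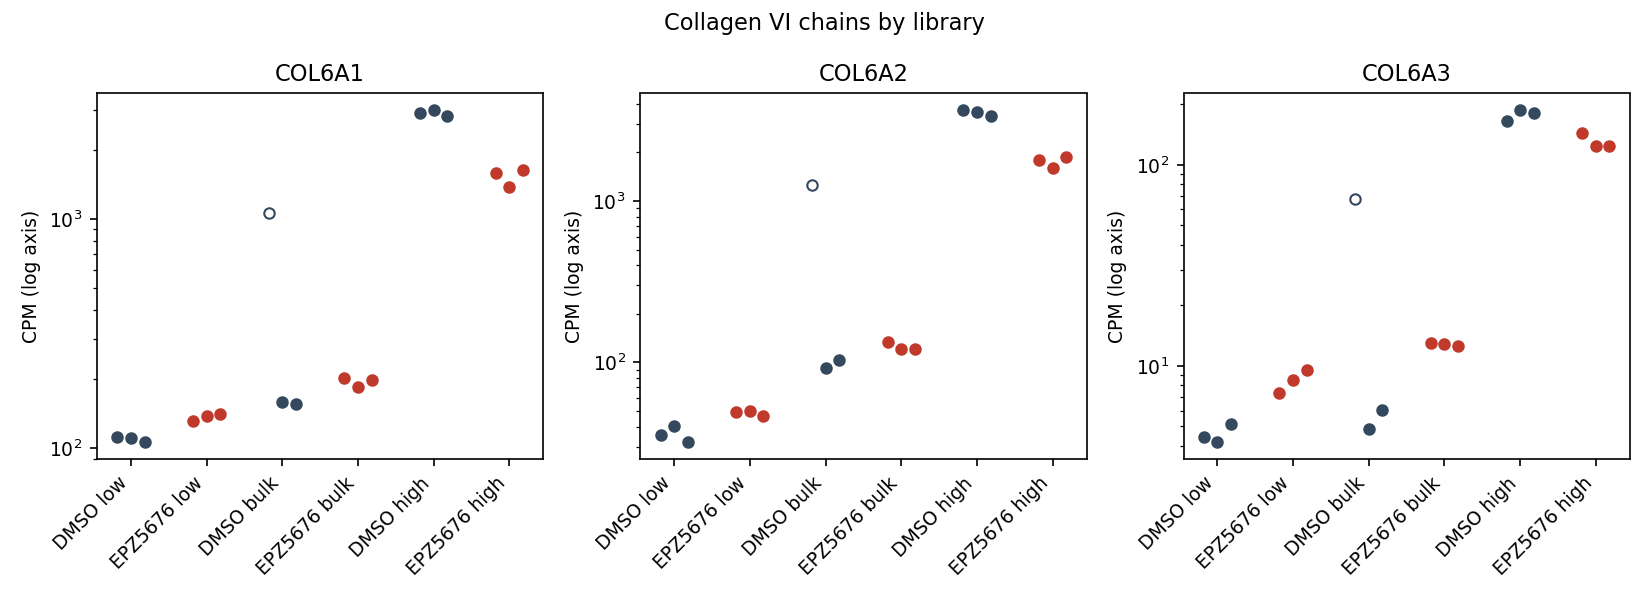
CPM on a log axis of COL6A1, COL6A2 and COL6A3 in each library by group (dark, DMSO; red, EPZ5676; open circle, DMSO bulk replicate 1). High cells are at the top in both treatments, the EPZ5676 sorts lie nearer to each other than the DMSO sorts, and DMSO bulk replicate 1 lies far above the other bulk libraries.

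The balance of the chains was compared within each library, where scaling cancels. The COL6A2 to COL6A1 ratio of counts was 1.22 ± 0.0421 in DMSO high and 0.329 ± 0.0335 in DMSO low cells, and 1.15 ± 0.011 in EPZ5676 high and 0.355 ± 0.0225 in EPZ5676 low cells. High cells thus held more alpha-2 than alpha-1 counts and low cells the reverse, with no overlap between the sorts. The EPZ5676 bulk libraries were in between, at 0.639 ± 0.0295, as were DMSO bulk replicates 2 and 3 at 0.577 and 0.668. DMSO bulk replicate 1, at 1.19, lay within the range of DMSO high cells. The COL6A3 to COL6A1 ratio was higher under EPZ5676 in both sorts, at 0.0856 ± 0.00813 against 0.0614 ± 0.00377 in high cells and at 0.0616 ± 0.00574 against 0.0421 ± 0.00586 in low cells. Per kilobase of exon the COL6A3 to COL6A1 ratio was 0.0167 ± 0.00103 in DMSO high cells, so the RNA levels of the chains were far from equal even though the molecule takes all of them. Protein was not measured. COL6A5, another collagen VI chain gene outside the set, stood at 9.78 ± 0.575 CPM in DMSO high and 10.99 ± 1.05 in DMSO low cells.

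**Figure D3:**
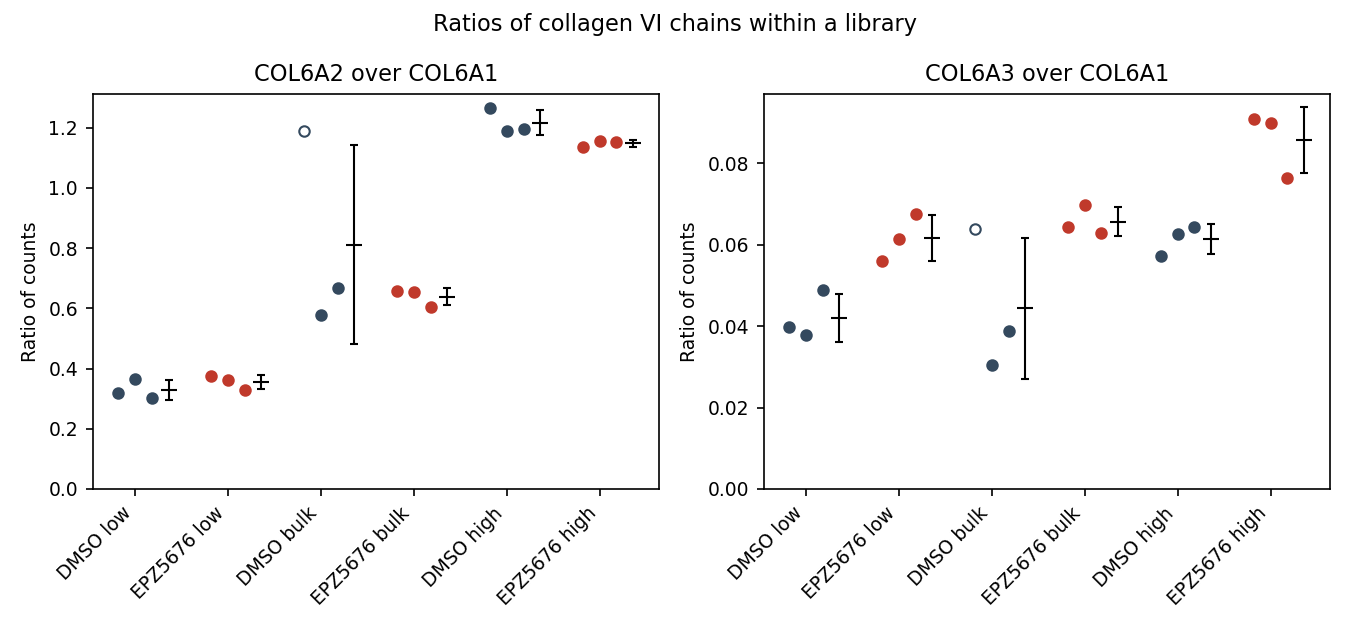
Ratio of raw counts of COL6A2 (left) and COL6A3 (right) to COL6A1 in each library, with the mean and SD of each group as bars (dark, DMSO; red, EPZ5676; open circle, DMSO bulk replicate 1). The left ratio follows the sort, while the right ratio is higher under EPZ5676 than under DMSO within each sort.

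The promoters of COL6A2 and COL6A3, whose RNA had the same order across the sorted groups, are shown beside that of COL12A1, which differed from them under EPZ5676 (below). RefSeq windows were found for 7 of the 10 members, with 2 starts for COL18A1. Each line gives the 250 bases before the start in GRCh38.p14, on the gene's strand: chr21:46097862-46098111 (plus strand) for COL6A2, chr2:237414165-237414414 (minus strand) for COL6A3 and chr6:75206054-75206303 (minus strand) for COL12A1. Capitals mark matches to 6 motifs sought on both strands. These are the AP-1 motif TGANTCA, the motif of TEAD factors GGAATG, the E-box of ZEB factors CACCTG and the E-box of MITF, which reads CANGTG. The others are GGGCGG and the TATA box, which reads TATAAA. Every match to the E-box of ZEB factors is also a match to that of MITF.

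COL6A2: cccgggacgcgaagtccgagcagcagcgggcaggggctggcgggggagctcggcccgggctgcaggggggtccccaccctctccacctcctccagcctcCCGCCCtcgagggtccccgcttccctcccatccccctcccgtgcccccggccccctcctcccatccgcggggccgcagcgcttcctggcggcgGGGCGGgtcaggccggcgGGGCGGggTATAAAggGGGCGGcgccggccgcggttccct

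COL6A3: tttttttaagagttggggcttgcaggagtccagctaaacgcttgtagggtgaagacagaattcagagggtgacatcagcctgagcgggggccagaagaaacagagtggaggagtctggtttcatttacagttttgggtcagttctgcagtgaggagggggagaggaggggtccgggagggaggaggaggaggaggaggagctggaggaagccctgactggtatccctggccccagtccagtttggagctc

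COL12A1: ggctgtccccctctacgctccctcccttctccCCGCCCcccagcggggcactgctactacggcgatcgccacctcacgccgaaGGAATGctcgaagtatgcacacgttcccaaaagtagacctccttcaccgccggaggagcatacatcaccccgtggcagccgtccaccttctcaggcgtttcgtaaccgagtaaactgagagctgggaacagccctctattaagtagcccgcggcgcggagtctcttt

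COL6A2 had a TATA box from 32 to 27 bases before its start and 4 GGGCGG matches, with 79.6% G and C. COL6A3 had none of the 6 motifs and 56% G and C. COL18A1, whose sorted groups had the same order of levels, had 9 GGGCGG matches before its upstream start, and 1 GGGCGG and 1 TATAAA match before the other. COL12A1 had 1 GGAATG match, from 167 to 162 bases before the start, and 1 GGGCGG match. GGAATG occurs in 11.9% and TATAAA in 10.7% of the 35116 windows. TGANTCA, found in 6.57% of them, was in no window of the 7 members. CACCTG (17.5% of windows) and CANGTG (36.5%) were matched in COL16A1 only, at the same bases. A match is a string of letters and not a bound site.

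The FACIT collagens were ordered differently from collagen VI. COL12A1 (ENSG00000111799), which bridges fibrils and other matrix proteins, stood at 8.20, 6.61 and 7.90 CPM in DMSO high and at 0.933, 1.71 and 2.43 in DMSO low libraries. Under EPZ5676 it stood at 18.01, 17.15 and 15.99 CPM in high and at 4.07, 2.997 and 3.53 in low libraries. Each EPZ5676 group lay above its DMSO counterpart in the sorted cells without overlap, and the difference between sorts was alike in both treatments, 2.14 ± 0.25 under DMSO and 2.29 ± 0.22 under EPZ5676 on the log2 scale. EPZ5676 low cells overlapped with DMSO bulk cells (3.47 ± 1.04 CPM).

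COL14A1 (ENSG00000187955), a FACIT collagen involved in fibril assembly, had the narrowest range. It stood at 20.5, 21.8 and 18.6 CPM in DMSO high, 11.8, 13.1 and 12.1 in DMSO low, 17.2, 16.98 and 17.9 in EPZ5676 high and 22.0, 20.7 and 17.2 in EPZ5676 low libraries. High cells were above low cells under DMSO (0.72 ± 0.10), while under EPZ5676 the sorts overlapped (-0.20 ± 0.10). Its highest group was EPZ5676 bulk, with 23.2, 23.4 and 24.8 CPM, above all DMSO high libraries, and it was the only tested member whose highest group was not a high sort.

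COL16A1 (ENSG00000084636), a FACIT collagen found near basement membranes and fibrillin microfibrils, stood at 66.9 ± 6.29 CPM in DMSO high and 16.02 ± 1.74 in DMSO low cells. Under EPZ5676 it stood at 74.5 ± 3.82 in high and 22.2 ± 2.62 in low cells. The high groups overlapped with each other, and the low groups did not. The log2 difference between sorts was 2.06 ± 0.26 under DMSO and 1.74 ± 0.26 under EPZ5676.

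COL18A1 (ENSG00000182871), the source of endostatin, followed the order of collagen VI. It stood at 68.5, 78.0 and 82.0 CPM in DMSO high, 56.7, 53.5 and 59.2 in EPZ5676 high, 7.498, 5.71 and 5.67 in EPZ5676 low and 3.93, 3.67 and 4.85 in DMSO low libraries. These 4 groups did not overlap, and the log2 difference between sorts was 4.19 ± 0.56 under DMSO and 3.18 ± 0.54 under EPZ5676. Counts are per gene and do not separate its 2 RefSeq starts. Its antisense genes had at most 4 counts in any library, and the strand setting of the counting, which is not stated, was not tested.

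**Figure D4:**
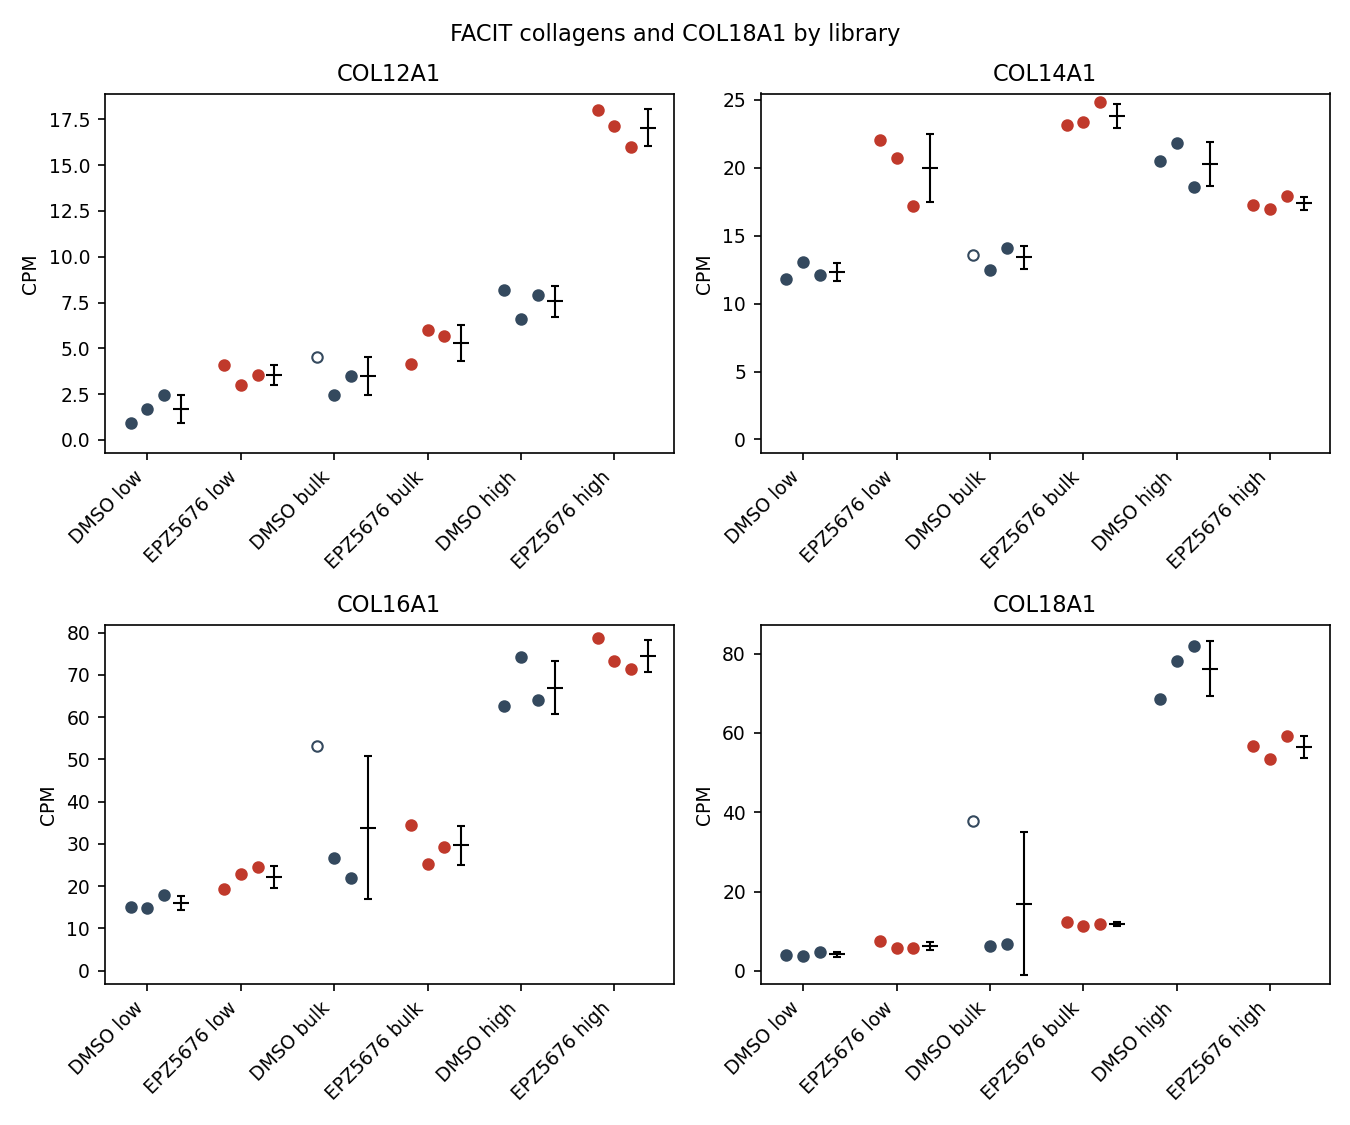
CPM of COL12A1, COL14A1, COL16A1 and COL18A1 in each library, with the mean and SD of each group as bars (dark, DMSO; red, EPZ5676; open circle, DMSO bulk replicate 1). COL12A1 is highest in EPZ5676 high cells, COL14A1 in EPZ5676 bulk cells, and COL18A1 in DMSO high cells.

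Levels can be set side by side between genes only per length. The length used is the union of all annotated exons, such as 19.6 kb for COL6A3, 8.5 for COL18A1 and 5.3 for COL6A1. The order of genes depends on this choice, and other lengths were not tried. Values are mean CPM per kilobase of exon. In DMSO high cells this was 654 for COL6A2, 542 for COL6A1, 9.05 for COL6A3, 8.94 for COL18A1, 7.22 for COL16A1, 2.35 for COL14A1 and 0.606 for COL12A1. COL8A1, COL4A2 and COL4A1 followed at 0.205, 0.0629 and 0.0191. In DMSO low cells COL6A1 led at 20.5, ahead of COL6A2 at 6.69, COL16A1 at 1.73, COL14A1 at 1.42, COL18A1 at 0.487, COL6A3 at 0.234 and COL12A1 at 0.135. The sorts thus differed in order as well as in level: COL6A2 came before COL6A1 in high and after it in low cells, and COL6A3 came next after these in high cells, within its spread (SD 0.57) of COL18A1, and after COL18A1 in low cells.

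The comparison of high with low cells asks which genes set the NGFR- and EGFR-high population apart. Under DMSO all 9 tested members were called higher in high cells at an adjusted p under 0.05, where 29.6% of the 18121 tested genes were (26.7% were lower and 56.3% changed in either direction). Libraries of the sorts did not overlap for these 9, as for 31.6% of tested genes in that direction. Under EPZ5676, 8 of 9 were called higher, all but COL14A1, against 25.8% of tested genes, and the same 8 did not overlap, as for 31.5%. COL4A2 and COL8A1 passed the filter on low counts only through high libraries, so the filter favoured this direction for them. These counts and the medians that follow include both. The median log2 difference of the members was 4.19 under DMSO and 3.48 under EPZ5676, against 0.03 and 0.02 over all tested genes. Without DMSO bulk replicate 1 the errors of the collagen VI chains and COL18A1 shrank. Under DMSO, COL6A1 then stood at 4.725 ± 0.056, COL6A2 at 6.609 ± 0.101, COL6A3 at 5.268 ± 0.093 and COL18A1 at 4.188 ± 0.106. Under EPZ5676 they stood at 3.484 ± 0.053, 5.18 ± 0.095, 3.936 ± 0.086 and 3.189 ± 0.102. Melanocyte, endothelial, and pericyte and smooth muscle markers moved with the sort under DMSO as given above. Of 6 tested fibroblast markers, 5 were called higher and 1 lower in high cells in both treatments. LUM was lower under DMSO, at 31.7 ± 5.15 against 67.8 ± 2.76 CPM. The part of all these markers in the collagen differences was not tested.

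The comparison of EPZ5676 with DMSO asks what DOT1L inhibition changes within a population. In high cells the collagen VI chains and COL18A1 were lower with EPZ5676, and COL12A1 was higher. The log2 fold changes were -0.92 ± 0.55 for COL6A1, -1.0 ± 0.73 for COL6A2, -0.44 ± 0.63 for COL6A3 and -0.43 ± 0.46 for COL18A1, against 1.17 ± 0.21 for COL12A1. COL16A1 stood at 0.15 ± 0.24 and COL14A1 at -0.22 ± 0.10. Libraries did not overlap for 6 members that were lower (COL8A1, COL6A1, COL6A2, COL6A3, COL14A1 and COL18A1), as for 12.1% of tested genes, and for 1 that was higher, as for 12.7%. The median log2 change of the members was -0.42 in high and 0.48 in low cells, against -0.0021 and 0 over all tested genes.

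The errors of the fold changes of the collagen VI chains, COL16A1 and COL18A1 rest largely on DMSO bulk replicate 1. With all libraries, COL12A1 was the only member called in high cells, where 1.95% of tested genes were called higher and 1.04% lower. Without DMSO bulk replicate 1 the fold changes hardly moved and the errors shrank, to -0.92 ± 0.05 for COL6A1, -0.999 ± 0.08 for COL6A2, -0.44 ± 0.07 for COL6A3 and -0.43 ± 0.08 for COL18A1. Then 4 members were called lower, against 4.89% of tested genes, and COL12A1 higher, against 5.85%. Leaving out the libraries with over 16% of reads on no feature as well gave -0.85 ± 0.07 for COL6A1, -0.93 ± 0.10 for COL6A2 and -0.50 ± 0.11 for COL6A3. In that fit 1 EPZ5676 high library remained, so these errors take its spread from the other groups. Melanocyte markers summed to 1851 to 2024 CPM in EPZ5676 high against 1235 to 1448 in DMSO high libraries, and fibroblast markers to 416 to 489 against 521 to 560. The fibroblast markers did not move as a whole: PRRX1, which held most of the sum, stood at 258 ± 16.6 against 306 ± 14.1 CPM, DCN at 21.8 ± 1.12 against 15.3 ± 2.005, and LUM rose from 31.7 ± 5.15 to 52.7 ± 8.52 (adjusted p = 0.00828). The part of these markers in the collagen values was not tested.

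In low cells most members were higher with EPZ5676. Libraries did not overlap for 7 members that were higher, as for 11.6% of tested genes: COL6A1 (0.33 ± 0.55), COL6A2 (0.43 ± 0.74), COL6A3 (0.89 ± 0.85), COL12A1 (1.03 ± 0.26), COL14A1 (0.69 ± 0.10), COL16A1 (0.48 ± 0.27) and COL18A1 (0.58 ± 0.61). COL8A1, with 1 count under EPZ5676 against 4, was lower without overlap in CPM, as for 11.5%. Its raw counts were 0, 1 and 0 under EPZ5676 against 2, 1 and 1 under DMSO. They tie at 1 count, so the separation in CPM (0.0411 against 0.0450) rests on library scaling alone. The ratio of summed counts was 0.262, with an interval for counting error of 0.00532 to 2.65. COL14A1 was the only member called with all libraries, where 0.712% of tested genes were called higher. Without DMSO bulk replicate 1 all 7 were called, against 3.01% of tested genes called higher, with errors of 0.05 for COL6A1, 0.08 for COL6A2, 0.11 for COL6A3 and 0.13 for COL18A1. NGFR stood at 3.85 ± 2.91 CPM in EPZ5676 low and 1.003 ± 0.527 in DMSO low cells, and EGFR at 4.59 ± 0.28 against 2.79 ± 0.612. The sums of 3 marker lists were higher with EPZ5676 as well, without overlap, at 14131 to 14308 against 11341 to 11813 CPM for melanocyte, 146 to 154 against 127 to 138 for fibroblast and 5.61 to 6.62 against 2.51 to 3.42 for endothelial markers, of which VWF rose by 1.03 ± 0.25 (adjusted p = 0.0448). The melanocyte and fibroblast lists did not move as a whole. PMEL rose from 8147 ± 315 to 10440 ± 33.1 CPM, while MLANA fell from 567.5 ± 20.9 to 382.9 ± 7.89. LUM rose from 67.8 ± 2.76 to 89.17 ± 1.135, while PRRX1 fell from 61.05 ± 4.34 to 52.73 ± 3.17. The part of these genes in the collagen values was not tested.

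**Figure D5:**
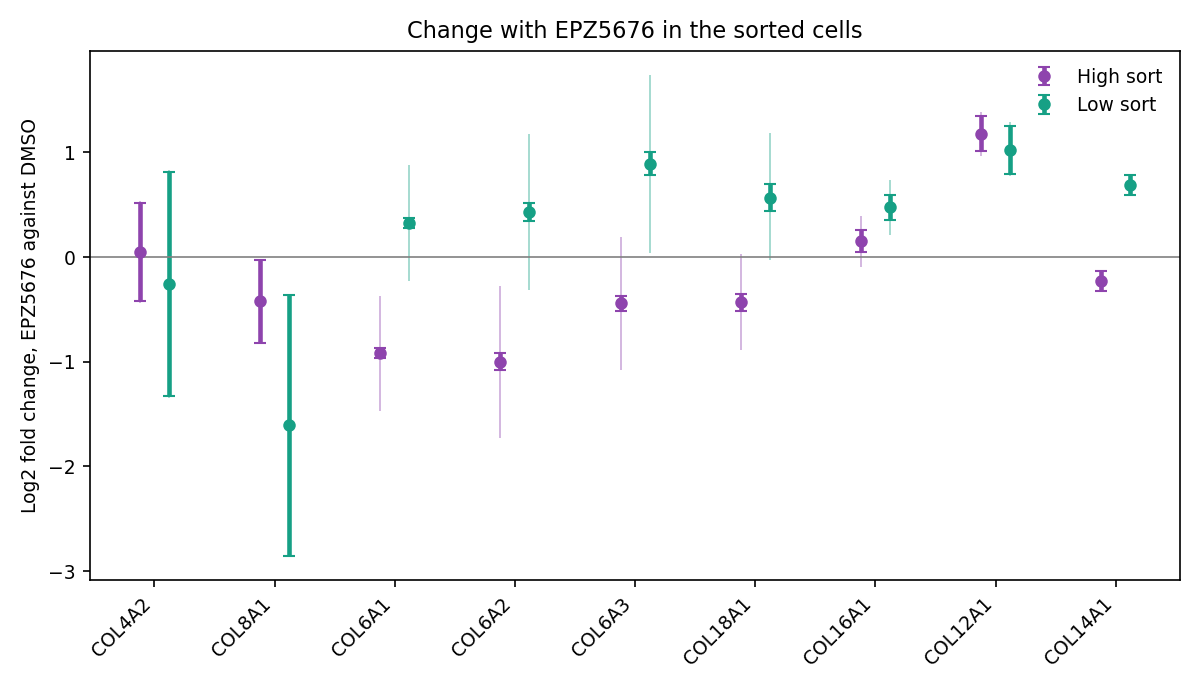
Log2 fold change of EPZ5676 against DMSO in high (purple) and low (green) cells for the 9 tested members. Thick bars are the SE without DMSO bulk replicate 1 and pale thin bars the SE with all libraries. The collagen VI chains, COL18A1 and COL14A1 lie below 0 in high and above 0 in low cells, while COL12A1 is above 0 in both.

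The interaction compares the EPZ5676 change in high cells with that in low cells. It stood at -1.24 ± 0.78 for COL6A1, -1.43 ± 1.04 for COL6A2, -1.33 ± 1.06 for COL6A3, -1.01 ± 0.76 for COL18A1 and -0.92 ± 0.14 for COL14A1, and at 0.14 ± 0.34 for COL12A1. COL14A1 was the member called, as were 0.116% of tested genes in that direction and 0.204% in the other. Without DMSO bulk replicate 1 the collagen VI chains, COL14A1 and COL18A1 were called, beside 2.61% of tested genes in that direction, with COL6A1 at -1.24 ± 0.07 and COL18A1 at -1.0 ± 0.15. COL12A1 stood at 0.15 ± 0.29 in that fit.

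Group means of the bulk cultures lay between those of the sorts, nearer to low cells, in both treatments for every tested member but COL14A1, whose EPZ5676 bulk mean (23.8 CPM) was above both sorts. COL6A1 stood at 202, 185 and 199 CPM in EPZ5676 bulk and at 1059, 159 and 155 in DMSO bulk libraries. COL6A3 stood at 13.0, 12.9 and 12.5 against 67.6, 4.85 and 6.01. DMSO bulk replicate 1 was 6.74, 12.9 and 12.5 times the mean of the other DMSO bulk libraries for COL6A1, COL6A2 and COL6A3, 5.68 times for COL18A1, 2.19 times for COL16A1 and 1.02 times for COL14A1.

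The sign of the bulk comparison depended on that library. With it, the log2 fold change of EPZ5676 against DMSO was -1.23 ± 0.56 for COL6A1, -0.999 ± 0.73 for COL6A3 and -0.51 ± 0.52 for COL18A1. Without it, these were 0.31 ± 0.06, 1.23 ± 0.12 and 0.82 ± 0.13. COL14A1 stood at 0.83 ± 0.10 with it and 0.83 ± 0.11 without it, and the bulk libraries of the treatments did not overlap, as for 8.21% of tested genes in that direction. It was the member called, beside 0.497% of tested genes called higher. Without DMSO bulk replicate 1, COL6A1, COL6A3, COL12A1, COL14A1 and COL18A1 were called higher, beside 1.98% of tested genes.

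Genes with the most similar pattern were sought among 10487 genes with a mean of at least 5 CPM, by the root mean square difference of log2 CPM over the 18 libraries after centring each gene. COL6A3 was nearest to ANTXR2 (0.23), a receptor for collagen VI, then to NEGR1 (0.24) and LTBP2 (0.24). COL6A1 was nearest to FGF1 (0.18), NDRG1 (0.23) and SETBP1 (0.24), and COL6A2 to ARHGAP22 (0.25), TMEM158 (0.26) and PDGFRA (0.27). COL16A1 was nearest to the complement protease gene C1R (0.17), COL18A1 to SFRP1 (0.25), COL12A1 to LIMCH1 (0.41) and COL14A1 to DYNC1I1 (0.21). Among the members themselves, COL6A1 and COL18A1 differed least (0.39), less than COL6A1 and COL6A3 (0.41) or COL6A2 and COL6A3 (0.66). COL6A2 and COL14A1 differed most (2.51). These distances describe libraries whose main contrast is the sort.

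Other genes of collagen biology were taken from lists fixed by name. Their counts stand beside the shares of all genes given above, which were 30.3% higher and 27.1% lower between the DMSO sorts without DMSO bulk replicate 1. Some listed genes, COL4A6 and COL22A1 among them, passed the filter on low counts only through high libraries, so the filter favoured higher calls for them. The list counts and medians include such genes. Of 11 tested collagen receptors, 9 were higher and 2 lower in high than low cells under DMSO (median 1.68). ANTXR2 stood at 217 ± 7.15 against 6.11 ± 0.392 CPM (5.15 ± 0.69, adjusted p = 3.23e-05) and ANTXR1 at 171 ± 3.58 against 61.9 ± 3.18 (1.47 ± 0.16). The integrin chains ITGA1 (4.10 ± 0.53), ITGA2 (2.40 ± 0.25), ITGA10 (1.83 ± 0.14) and ITGB1 (1.59 ± 0.16), which bind collagens, were higher, as was the kinase receptor DDR1 (0.88 ± 0.11). CSPG4, which binds collagen VI, went the other way at 377 ± 10.1 against 499 ± 2.9 CPM (-0.40 ± 0.05, adjusted p = 1.5e-06), as did ADGRG1 (-2.31 ± 0.16). ITGA11 stood at 8.78 ± 1.24. With EPZ5676 in high cells, 3 receptors were called higher and 3 lower, in the fit without DMSO bulk replicate 1 only. In that fit ANTXR2 fell by 0.44 ± 0.06 in high cells (adjusted p = 7.71e-07) and rose by 0.48 ± 0.08 in low cells (adjusted p = 0.000244).

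Of 18 other tested collagens of the network, FACIT, microfibrillar and membrane classes, 11 were higher and 1 lower in high cells under DMSO (median 1.42; 2 lower without DMSO bulk replicate 1). COL15A1, the closest relative of COL18A1, stood at 265 ± 8.78 against 40.4 ± 3.08 CPM (2.71 ± 0.35, adjusted p = 2.28e-05). The transmembrane collagens COL13A1 (6.58 ± 0.77) and COL17A1 (5.74 ± 0.65) and the anchoring fibril collagen COL7A1 (1.65 ± 0.17) were higher, and the FACIT collagen COL9A1 was lower (-1.94 ± 0.40). COL4A6 stood at 0.776 ± 0.329 against 0.0495 ± 0.0491 CPM. With EPZ5676, COL25A1, a transmembrane collagen, rose in high cells (3.41 ± 0.156 to 6.40 ± 0.283 CPM, adjusted p = 0.00611) and in low cells (3.19 ± 0.689 to 5.43 ± 0.585, adjusted p = 0.0309). COL15A1 stood at -0.38 ± 0.33 in high cells, or at -0.38 ± 0.06 without DMSO bulk replicate 1 (adjusted p = 6.58e-06). Of 10 tested fibrillar collagens, 8 were higher in high cells under DMSO and the others were not called (median 2.98).

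Of 17 tested basement membrane partners, 11 were higher and 3 lower in high cells under DMSO (median 0.83; 4 lower without DMSO bulk replicate 1). The nidogens, which link laminin to collagen IV, were both higher: NID2 stood at 13.5 ± 1.19 against 1.24 ± 0.221 CPM and NID1 at 234 ± 10.7 against 132 ± 11.8. HSPG2, the proteoglycan perlecan, stood at 499 ± 45.2 against 190 ± 3.42 CPM. LAMA1 was lower (-1.26 ± 0.09). SPARC, which binds collagen IV and fibrillar collagens, was lower in high cells and rose with EPZ5676 in all 3 populations, from 638 ± 34.4 to 1094 ± 8.76 CPM in high cells (0.78 ± 0.05, adjusted p = 5.38e-09), by 0.29 ± 0.05 in low and by 0.34 ± 0.05 in bulk cells. Its rise was larger in high than low cells (interaction 0.49 ± 0.07, adjusted p = 0.00227). LAMA5 differed the other way (interaction -1.44 ± 0.29, adjusted p = 0.029).

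The 22 genes of collagen synthesis and folding were split, with 8 higher and 6 lower in high cells under DMSO (10 and 7 without DMSO bulk replicate 1; median 0.11). PLOD2, a lysyl hydroxylase, stood at 201 ± 5.41 against 76.1 ± 2.34 CPM and the prolyl hydroxylase chain P4HA2 at 95.1 ± 14.6 against 43.6 ± 1.58. SERPINH1, the collagen chaperone, was higher by 0.35 ± 0.08. P3H2, which hydroxylates collagen IV, was lower (-1.09 ± 0.09), with PLOD3 (-0.40 ± 0.04). With EPZ5676 in high cells 4 of the 22 rose and 1 fell: P3H2 rose from 17.4 ± 2.11 to 24.7 ± 1.6 CPM (adjusted p = 0.00231), with COLGALT1, PLOD3 and P4HB, and P4HA1 fell by 0.27 ± 0.05. Of 14 tested collagen proteases, 13 were higher in high cells under DMSO and the other was not called (median 2.08), among them ADAMTS3 (2.19 ± 0.18) and CTSB (0.91 ± 0.09). Of 15 tested fibril and microfibril partners, 11 were higher and 1 lower (median 3.23), with FBN1 at 4.82 ± 0.66 and LUM at -1.09 ± 0.14. LUM and TGFBI, which binds collagen VI, rose with EPZ5676 in high cells (0.73 ± 0.14, adjusted p = 0.00828, and 1.15 ± 0.30, adjusted p = 0.0422).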

How the data were processed

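The deposited values were raw counts per gene for each library, which the authors made, per the submitters' processing notes, by STAR alignment to hg19 and HTSeq counting. Versions, the annotation release and the strand setting are not given in the sources used here. RNA was poly(A)-selected, per the labels' protocols. The 5 summary lines of each library (12.8% to 28.65% of reads on no feature, 6.068% to 7.712% ambiguous) stayed out of library sizes. Gene names came from a current table (52181 genes) or GENCODE 29 (345), and 11151 genes had none. No 2 libraries held identical counts.

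Counts were fitted in edgeR 4.0.16 (R 4.3.3) with TMM scaling, its filter on low counts, 6 group means over 18 libraries and robust quasi-likelihood tests. Adjusted p is Benjamini-Hochberg over 18121 genes, with calls under 0.05, and the test was checked on simulated data. The members and gene lists were chosen with earlier results of these data known. Named from each list were up to 4 called genes of smallest p per direction with at least 1 CPM, and direct partners of members. Promoter windows and their coordinates are RefSeq's on GRCh38.p14, and no coordinates are given on hg19. Exon lengths are unions of exons. Depth limits COL4A1, COL4A2 and COL8A1 to counting error given as 95% intervals, and reads carry no molecular identifiers. Alternatives were other scalings, no filter, DESeq2 1.42.0, a replicate block, only the groups compared, and libraries left out.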

Additional observations from a re-analysis of the deposited data

Results flagged for a closer look

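For 5 members the EPZ5676 change differed between high and low cells. The difference, as the log2 change in high cells minus that in low cells, was -1.24 for COL6A1, -1.43 for COL6A2, -1.33 for COL6A3, -1.01 for COL18A1 and -0.92 for COL14A1. For COL14A1 the interaction term passed the threshold with all libraries, as for 0.116% of tested genes in that direction. For the other 4, every EPZ5676 library lay below every DMSO library in high cells and above every DMSO library in low cells. Taken singly, these separations were seen for 12.1% and 11.6% of tested genes, and the share of genes with both was not counted. For these 4 the interaction term passed the threshold in the fit without DMSO bulk replicate 1 and not with all libraries. In the fit without it, 2.61% of tested genes passed in that direction. Since the genes were chosen with these levels known, this is a description. No group of 3 libraries was tested for a library far from the others.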

How the results depend on the processing

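Counts of all genes and of the 9 tested members called at an adjusted p under 0.05 are given here by comparison (10 members tested with no filter, 7 in bulk and in low cells with only the groups compared). For high against low cells under EPZ5676 (8858 genes, 8 members), leaving out the libraries with over 16% of reads on no feature gave 4176 and 4, and DESeq2 gave 5 members of 6 with an adjusted p. For EPZ5676 against DMSO in bulk (132 and 1), no filter gave 440 and 2, DESeq2 290 genes, and only the groups compared 2 and 0. In high cells (543 and 1), no filter gave 948 genes and only the groups compared 1413 and 5. In low cells (188 and 1), no filter gave 373 and 2, DESeq2 317 and 2 of 4 with an adjusted p, and only the groups compared 1028 and 7. Library size alone gave 2 members there, beside 146 genes called higher and 44 lower. For the interaction (58 and 1), no filter gave 304 genes, DESeq2 177, and only the groups compared 863 and 5. Leaving out the libraries with over 16% gave 0 and 0 in bulk, 5 and 0 in high, 7 and 0 in low cells and 0 and 0 for the interaction, with 1 library left in the EPZ5676 bulk and high groups, assumed to vary like the others. At an unadjusted p under 0.05, edgeR gave 754 genes and 1 member in bulk, 1188 and 1 in high, 1309 and 2 in low cells and 784 and 1 for the interaction in that setting, and 1245 and 2 in bulk with only the groups compared. Leaving out those and DMSO bulk replicate 1, chosen after seeing the data, gave 3, 4, 5 and 5 members in these 4 comparisons, 452 genes in low cells and 284 for the interaction.

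Leaving out each library in turn gave 9474 to 10798 genes and 9 members for high against low under DMSO, 8033 to 9496 and 8 to 9 under EPZ5676, 39 to 550 and 1 to 5 in bulk, 200 to 2018 and 1 to 5 in high cells, 60 to 968 and 1 to 7 in low cells, and 14 to 1072 and 1 to 5 for the interaction. The highest treatment counts came without DMSO bulk replicate 1. Bulk log2 fold changes ran from -1.64 to 0.31 for COL6A1, from -1.495 to 1.23 for COL6A3 and from -0.90 to 0.82 for COL18A1 with each library left out, the positive values being those without it, and with the high no-feature libraries out as well were 1.24 for COL6A3 and 0.76 for COL18A1. The cause was not tested. With the replicate number as a block, 10117, 8792, 129, 525, 173 and 49 genes and 9, 8, 1, 1, 1 and 1 members were called in the order above. Same-numbered libraries of different groups deviated together (r over 0.1) in 8 of 45 cases, and differently numbered ones in 15 of 90. The median r was -0.00525 and -0.00386. No pairing by number was seen, and this check cannot exclude that samples were paired.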
